A study of Mus musculus with 44 samples.

Results

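Potassium channel genes were followed through 42 of 44 libraries of mouse brain and cultured cortical neurons. The group held every listed gene whose mouse symbol starts with Kcn, which gave 92 of 17126 RefSeq accessions in 16 subfamilies. The choice used the symbol alone and no measured value. Of the 92 members, 7 had no RNA-seq read in any library (Kcne1, Kcne3, Kcnj14, Kcnj15, Kcnk15, Kcnmb3 and Kcnv2), and 20, these included, never reached 20 reads.

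Tissues were 1 adult hippocampus and 1 adult cortex, each from a male mouse, and hippocampus of E16 embryos. Primary cortical cultures came from P0–P1 pups of both sexes and had been treated with araC, which limits dividing glia. Cultures at 14 days in vitro (DIV14) were unstimulated, treated with BDNF or with glutamate plus glycine (glu/gly) for 30 min, or transduced at DIV5 by lentivirus to produce GFP, miR-1 or miR-155 under the neuronal synapsin promoter. Cultures at DIV10 were unstimulated or depolarised with KCl for 10 or 30 min. Visual cortex came from 8 mice of 6 to 7 weeks that had spent 1 week in the dark, and 4 of them received 1 h of light before the tissue was taken. Each tissue and culture had 1 library per assay, so that their comparisons carry counting intervals (95%, counting error only) and no test, and only the mice were replicated. Of the 9 cultures 6 were prepared in 2 batches of 3 from 2 litters each, but the sources used here do not say which, so that batch and condition cannot be told apart among them. RNA of both hippocampi was poly(A)-selected and that of the adult cortex was depleted of rRNA, so that tissue and RNA selection cannot be told apart in the comparison of cortex with hippocampus.

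RNA-seq reads on genes ran from 448022 (GFP) to 7689624 (embryonic hippocampus), ribosome-protected fragments (RPFs) from 2812215 to 23212489, and tags in visual cortex from 1233538 to 4812273. In both hippocampi RPF counts of weakly expressed genes were uneven. Of genes with 20 to 50 RNA-seq reads, 28.6% had no RPF in embryonic and 16.9% in adult hippocampus, against 0.141% in adult cortex. RPF values of weak members in hippocampus are therefore given beside their RNA counts only.

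Potassium channels set the resting potential of neurons, end the action potential and shape firing rate, and astrocytes use them to clear extracellular potassium. Most are tetramers. Kcna, Kcnb, Kcnc and Kcnd encode voltage-gated pore subunits, Kcnf, Kcng, Kcns and Kcnv encode silent subunits that modify Kcnb channels, and Kcnh and Kcnq encode the ether-à-go-go family and the M current. Kcnj encodes inward rectifiers, Kcnk leak channels, and Kcnma, Kcnn and Kcnt channels gated by calcium or sodium. Kcnu1 encodes the sperm channel, and Kcnab, Kcnip, Kcne and Kcnmb encode auxiliary subunits.

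The RNA of Kcn genes made up a larger part of the transcriptome in adult tissue than in embryonic tissue or culture. Of RNA-seq reads on genes, Kcn genes took 0.0942% in embryonic hippocampus, 0.465% in adult hippocampus, 0.572% in adult cortex, 0.175% at DIV10 and 0.240% at DIV14. Levels per length are given as reads per kb of counted open reading frame, scaled to all reads on genes (RPKM). On this scale the summed level was 668 in embryonic hippocampus, 1241 at DIV10, 1615 at DIV14, 3124 in adult hippocampus and 3406 in adult cortex. The median member with at least 20 reads stood at 6.19 RPKM in embryonic hippocampus against 26.3 for all genes, at 24.7 against 23.2 in adult hippocampus and at 51.9 against 34.8 in adult cortex. In culture the median member stayed below that of all genes, at 20.4 against 41.6 at DIV10 and 34.4 against 64.2 at DIV14. These medians cover 51 members in embryonic hippocampus, 67 in adult hippocampus, 57 in adult cortex, 36 at DIV10 and 22 at DIV14. At 20 reads a shallower library admits only higher levels, so that the medians compare within a library and not between libraries.

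**Figure D1:**
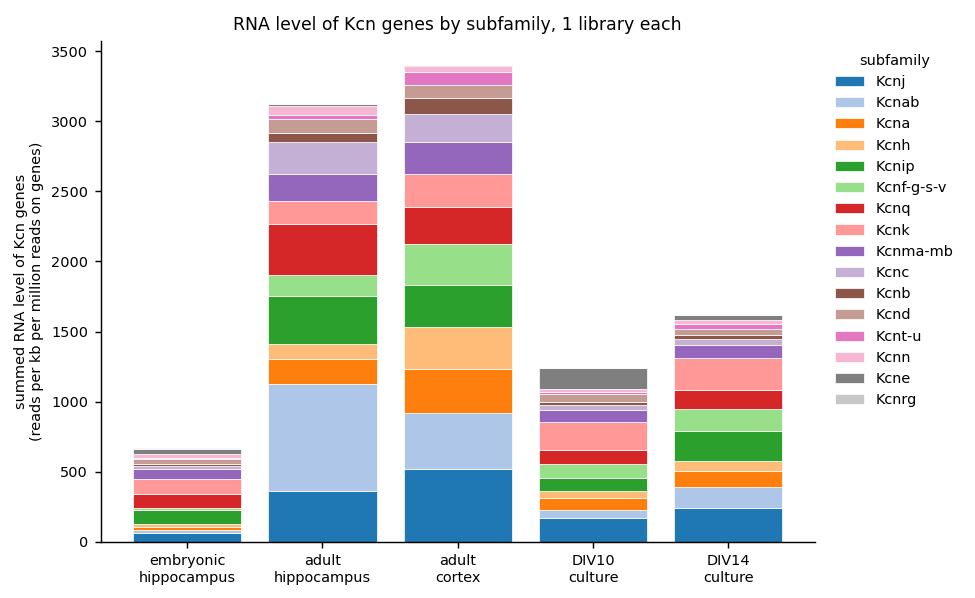
Summed RNA level of the Kcn genes, in RPKM, stacked by subfamily for 5 samples with 1 library each. The stacks of adult cortex (3406) and adult hippocampus (3124) stand above those of embryonic hippocampus (668), DIV10 culture (1241) and DIV14 culture (1615).

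Which subfamily led differed between samples. Shares are sums over members and were not adjusted for the size of the subfamily. Kcnj has 14 members, Kcnk 13, Kcna 8, Kcnq and Kcne 5 each, Kcnip 4 and Kcnab 3. In adult hippocampus the auxiliary Kcnab subunits held 24.6% of the summed Kcn level, owing to Kcnab2, the cytoplasmic β subunit of Kcna channels, at 642 RPKM. In adult cortex inward rectifiers (Kcnj) held the largest share, 15.2%, followed by Kcnab at 11.9% and Kcna at 9.07%. In embryonic hippocampus Kcnq (15.7%), Kcnk (15.4%) and Kcnip (14.5%) led, with Kcnmb4, a neuronal β subunit of the calcium-gated BK channel, at 66.9 RPKM and Kcnip1 at 60.9. At DIV14, Kcnj (14.9%), Kcnk (14.0%) and Kcnip (13.1%) led. At DIV10, Kcne held 11.8%, nearly all of it Kcne1l, an auxiliary subunit, at 145 RPKM.

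In adult cortex the members with the highest level per length in their subfamilies included, among voltage-gated pore subunits, Kcna2 at 119 RPKM, Kcnh7 at 86.7, Kcnc2 at 70.1 and Kcnd2 at 63.5. Kcnv1 led the silent subunits at 130. Of auxiliary subunits, Kcnab2 stood at 261, Kcnip3 at 116 and Kcnmb4 at 116, while Kcne1l reached 3.06. Among the others Kcnj4, a strong inward rectifier of forebrain neurons, reached 145, the leak channel Kcnk1 117, the sodium-activated Kcnt2 57.7 and the SK channel Kcnn2 29.3. The highest members of Kcna, Kcnip, Kcnk, Kcnmb and Kcnv thus lay between 116 and 130 RPKM.

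Several members are neighbours on a chromosome (GRCm38), at most 100 kb apart. Most pairs differed in level, and Kcnj16 and Kcnj2, 38195 bases apart, were closer, at 25.1 and 16.6 RPKM in adult cortex and 6.58 and 8.11 in adult hippocampus. Kcna3 (chr3:107036162-107038129), Kcna2 (chr3:107090883-107115005) and Kcna10 (chr3:107183143-107195721) stood at 22.1, 119 and 0 RPKM in adult cortex. Kcnj9 (chr1:172320508-172329322), a neuronal G-protein-gated subunit, lies 11887 bases from Kcnj10 (chr1:172341210-172374085), the main inward rectifier of astrocytes. The neuronal member stood at 0.2 RPKM in embryonic hippocampus, 40.4 in adult hippocampus and 79.1 in adult cortex, and the astrocytic Kcnj10 at 22.8, 58.8 and 24.7. Kcna1 and Kcna6 on chromosome 6 stood at 96.0 and 33.8 RPKM in adult cortex.

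The largest difference in the set lay between adult and embryonic hippocampus, a comparison that spans birth, neuronal maturation and myelination. Of the 92 members, 72 had at least 20 RNA-seq reads in 1 of the libraries. Of these, 55 were at least 2-fold higher in the adult and 9 at least 2-fold lower, or 76.4% and 12.5%. Over all 12585 genes tested, 22.4% were higher and 26.9% lower. The members' median was 2.44 on the log2 scale against -0.24 for all genes. A gene seen in the adult alone had to be higher, and 26 members passed the read minimum through 1 library only. With at least 20 reads in both libraries, a choice made after the data were seen, 34 of 46 members were higher and 4 lower, against 17.6% and 24.4% of genes, and the median was 1.87. Bulk RNA cannot tell fewer cells of a type from less RNA per cell.

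Among voltage-gated channels and their modifiers most tested members were higher. Kcnc1, a subunit of fast-spiking neurons, had 727 reads against 89 (8.63-fold, 6.92 to 10.9). Kcnc2 had 535 against 49 (11.5-fold) and Kcnc4 415 against 20 (21.9-fold). Of Kcna, whose channels line axons, 4 of 5 tested members were higher. Kcna1 had 754 reads against 57 (14.0-fold, 10.7 to 18.6) and Kcna2 620 against 56 (11.7-fold), whereas Kcna3 had 73 against 60 (1.29-fold, 0.901 to 1.84). The 3 Kcnab subunits that bind them were all higher, with Kcnab2 at 4926 reads against 119 (43.7-fold, 36.5 to 52.9) and Kcnab1 at 965 against 34 (30.0-fold, 21.3 to 43.5). All 9 silent subunits tested were higher as well, and the one with the largest difference was Kcnf1, with 350 reads against 2 (185-fold, 50.8 to 1532).

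Of 11 inward rectifiers tested, 10 were at least 2-fold higher and 1 lower. The G-protein-gated subunits, which slow firing when transmitter receptors are active, were among the members with the largest differences. Kcnj9 had 333 reads against 2 (176-fold, 48.3 to 1458), Kcnj6 506 against 7 (76.3-fold, 36.8 to 191) and Kcnj3 766 against 126 (6.42-fold, 5.31 to 7.82). Kcnj4 had 511 against 5 (108-fold, 46.0 to 334). Astrocytic Kcnj10 had 467 against 191 (2.58-fold, 2.18 to 3.07). Kcnj8 encodes the pore of vascular ATP-sensitive channels and was the lower one. It had 12 reads against 64 (5.05-fold lower, 2.70 to 10.3), and Abcc9, its regulatory subunit, had 45 against 230 (4.84-fold lower). Kcnj11 and Abcc8, the neuronal counterparts, had 174 against 86 (2.14-fold higher) and 358 against 129 (2.93-fold higher).

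Members of one subfamily also parted. Among Kcnd pore subunits of the dendritic A current, Kcnd2 had 926 reads against 84 (11.6-fold, 9.31 to 14.7) and Kcnd3 413 against 422 (1.03-fold, 0.900 to 1.19). Of the Kcnip subunits that bind Kcnd channels, Kcnip2 had 929 against 28 (35.0-fold) and Kcnip4 255 against 8 (33.7-fold), but Kcnip1 128 against 297 (2.20-fold lower, 1.78 to 2.72). Kcnq5, an M-channel subunit, had 785 against 47 (17.6-fold). Kcnma1, the BK pore, had 1858 against 127 (15.5-fold), while its β subunit Kcnmb4 had 505 against 300 (1.78-fold). Also at least 2-fold lower were Kcnh8 (10 against 59), Kcnk5 (6 against 31), Kcne1l (15 against 55), Kcnk10 (73 against 258), Kcnu1 (11 against 27) and Kcnn3 (80 against 170).

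**Figure D2:**
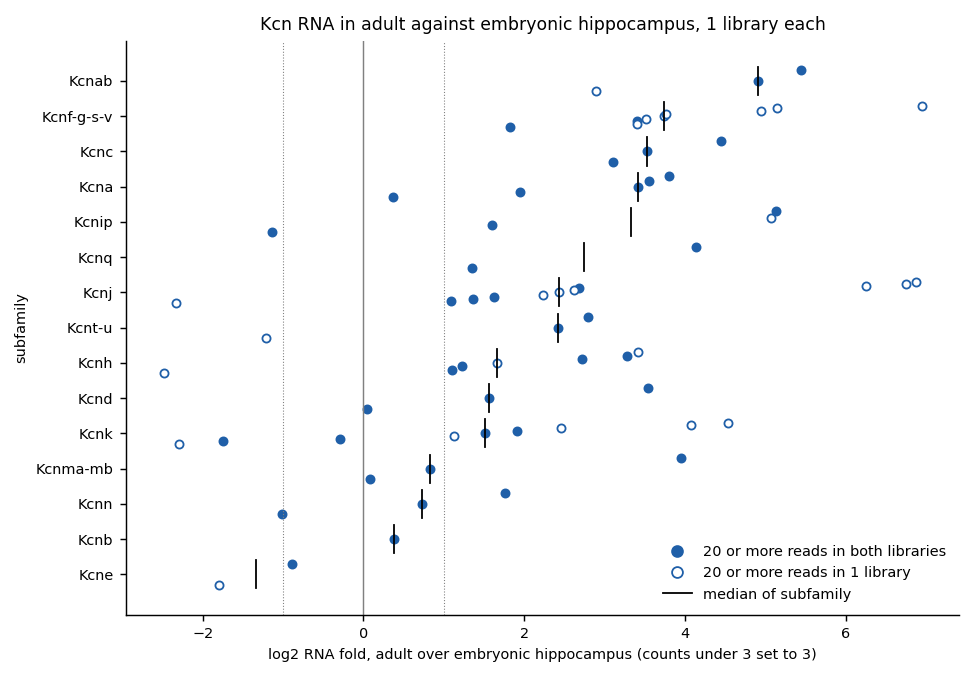
log2 RNA fold of 68 of the 72 Kcn genes tested, adult over embryonic hippocampus, by subfamily, with counts under 3 set to 3; filled points had at least 20 reads in both libraries, open points in 1, vertical bars are medians of the points shown and dotted lines 2-fold. All points of Kcnab, Kcnc and Kcnf-g-s-v lie to the right of 2-fold, while Kcne has the only median below 0.

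RPF counts, from a separate library of each tissue, were at least 2-fold higher in the adult for 55 of 67 members and lower for 4, against 30.3% and 33.5% of genes. Of the 55 members with higher RNA, 52 had enough RPFs to compare, 48 were also higher in RPFs, and 1, the leak channel Kcnk12, was lower (RNA 132 reads against 6, RPFs 89 against 321). Of the 9 members with lower RNA, 6 could be compared and 3 were lower in RPFs, Kcne1l and Kcnk10 among them, while 1, Kcnu1, was higher (RNA 11 reads against 27, RPFs 105 against 0). How often any gene called in RNA was also called in RPFs was not computed, here or in the comparisons below. Such counts of members thus have no background.

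Cell-type markers moved too. Summed marker RNA was higher in the adult by 5.88-fold for 6 neuron markers, 13.2-fold for 3 interneuron, 4.39-fold for 7 astrocyte and 47.8-fold for 6 oligodendrocyte markers, and 39.7-fold lower for 6 progenitor and 1.79-fold lower for 5 vascular markers. Their part in the differences of the Kcn genes was not tested. Of 16 measured partner proteins of these channels, 9 were at least 2-fold higher (such as Lgi1, secreted at synapses, 320 reads against 12, and Dpp6, a Kcnd subunit, 4338 against 580) and 3 lower (Abcc9, Lrrc55 and the axonal Cntn2, 965 against 9899).

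Adult cortex and adult hippocampus were compared for regional use of the channels. Of 67 members tested, 21 were at least 2-fold higher in cortex and 6 lower, against 9.35% and 10.6% of genes, and the median was 0.43 against -0.02. Of 6 Kcnh members tested 4 were higher. Kcnh5 had 317 reads in cortex and 121 in hippocampus (11.2-fold higher after scaling, 9.02 to 13.9), Kcnh7 524 and 308 (7.25-fold, 6.28 to 8.37) and Kcnh4 25 and 24 (4.44-fold, 2.43 to 8.11). The silent subunit Kcnv1 had 324 and 260 (5.31-fold, 4.49 to 6.27) and Kcnt2 331 and 330 (4.27-fold, 3.66 to 4.99). Members on the other side included Kcng2 with 8 and 269 reads (7.89-fold lower in cortex), Kcng1 with 23 and 269 (2.75-fold), Kcnab2 with 471 and 4926 (2.46-fold) and Kcnj10 with 46 and 467 (2.38-fold). In RPFs 18 of 69 members were at least 2-fold higher in cortex and 6 lower, or 26.1% and 8.70%, against 19.4% and 12.4% of all genes. Of the members called in RNA, 10 of the 21 and 3 of the 6 also passed in RPFs in the same direction. With 20 reads in both RNA-seq libraries 20 of 57 members were higher and 5 lower, against 10.5% and 6.14%. For Kcnj10 the RPF level went the other way, at 147 RPKM in cortex and 102 in hippocampus. Summed neuron, astrocyte, oligodendrocyte and interneuron markers stood at 1.03, 1.14, 1.20 and 0.72 times the hippocampal level. Of 16 partners, 2 were higher in cortex, Dpp10 (7.81-fold) and Adam22 (2.13-fold), and none was lower.

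Adult cortex was set against DIV14 cortical culture to compare tissue with the cultured cells used for the stimuli. Of 57 members tested, 35 were at least 2-fold higher in tissue and 2 lower, against 18.4% and 16.9% of genes. Here 35 members passed through the deeper tissue library only. With 20 reads in both, 12 of 22 were higher and 2 lower, against 9.5% and 22.5%. Kcna2 had 295 reads in tissue and 5 in culture (17.6-fold, 7.44 to 54.5). Kcnab3 had 105 and 0 (at least 10.4-fold), a bound set against 3 reads in that library. Kcnh7 had 524 and 15 (10.4-fold, 6.25 to 18.7) and Kcnc1 144 and 5 (8.57-fold, 3.59 to 26.8). Kcnk10, a mechanically gated leak channel, had 28 and 34 (4.08-fold lower in tissue) and Kcnip1 26 and 30 (3.88-fold lower). In RPFs 32 of 67 members were at least 2-fold higher in tissue and 4 lower, against 12.4% and 11.2% of genes. Of the members called in RNA, 22 of the 35 were also higher in RPFs and both others lower. Oligodendrocyte markers were 31.3-fold, microglia markers 16.6-fold, neuron markers 2.67-fold and astrocyte markers 1.71-fold higher in tissue. Progenitor markers stood at 0.105 times, and the part of these cell types in the differences was not tested. Of 14 partners, 8 were higher in tissue and none lower.

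Cultures of DIV14 and DIV10 were compared, which differ in time in vitro. They were separate cultures, and the sources used here do not give the preparation of each or the rRNA step of some. Time in vitro thus cannot be told apart from preparation or RNA selection. Of 37 members tested, 9 were at least 2-fold higher at DIV14 and 2 lower, against 2.24% and 8.41% of genes. The highest were Kcnv1 with 61 reads at DIV14 and 43 at DIV10 (3.32-fold after scaling, 2.21 to 5.03), Kcna1 with 24 and 19 (2.96-fold), Kcnab1 with 29 and 27 (2.51-fold), Kcnab2 with 53 and 50 (2.48-fold) and Kcnip1 with 30 and 33 (2.13-fold). The others were Kcnt1, Kcnq3, Kcnt2 and Kcnh3. RPFs were at least 2-fold higher for 21 of 62 members, 6 of the 9 among them, and lower for 1, against 4.01% and 9.82% of genes. Kcne1l was lower in every readout. It had 6 RNA-seq reads against 66 (4.70-fold lower, 2.05 to 13.3), 91 RPFs against 850, and 90 tail tags against 219. Kcnj16 had 3 reads against 20, with an interval that included no difference. With at least 20 reads in both libraries 8 of 21 members were higher and none was lower, against 2.91% and 1.7%. Of 10 partners, none was higher and 1, the axonal anchor Ank3, was lower (41 reads against 242, 2.52-fold). Summed markers at DIV14 stood at 1.43 times the DIV10 level for neurons, 0.682 for progenitors, 0.644 for oligodendrocytes and 0.702 for microglia, and their part in the differences was not tested.

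Stimulated cultures were examined for an early response of the channels, at 30 min or less. Both treatments at DIV14 share 1 unstimulated control, and both KCl times share another. The activity genes responded, with the summed level of 6 of them at 66.8 CPM (counts scaled to all reads on genes) in the unstimulated DIV14 culture, 1406 with BDNF and 748 with glu/gly, and at 46.2, 97.9 and 463 after 0, 10 and 30 min of KCl. With BDNF 1 of 25 members tested was at least 2-fold higher, Kcnip3, a calcium-binding subunit that also acts as a transcriptional repressor (29 reads against 15, 2.05-fold, 1.06 to 4.12), and none lower, against 1.11% and 1.91% of genes. Its RPFs numbered 77 against 124. In RPFs 0 of 58 members were higher and 1 lower, Kcne1l (31 against 91), against 0.608% and 2.73% of genes, and with 20 RNA-seq reads in both libraries 0 of 20 members passed in either direction, against 0.214% and 0.291%. With glu/gly 0 of 30 passed 2-fold in either direction, against 3.03% and 2% of genes. No member passed in RPFs (58 tested, 0.501% and 2.66% of genes) or with 20 reads in both libraries (22 tested, 1.36% and 0.66% of genes). Of the partners 0 of 9 passed with BDNF, and with glu/gly 2 of 10 were higher, Ank3 (167 reads against 41, 3.44-fold) and Lgi1 (26 against 9, 2.44-fold).

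KCl had 1 member past 2-fold at 10 min and 5 at 30 min, all lower. Of 36 tested at each time, the backgrounds for lower genes were 2.69% and 7.68%, and for higher genes 0.396% and 1.9%. Kcnj10 was the one lower at both times. It had 25 reads without KCl, 4 at 10 min (2.79-fold lower, with an interval that included no difference) and 4 at 30 min (4.21-fold lower, 1.46 to 16.7). At 30 min Kcnh5 had 9 reads against 30 (2.25-fold lower), Kcnk2, a mechanically gated leak channel, 13 against 43 (2.23-fold), and Kcnab1 9 against 27 and Kcne1l 22 against 66 (2.02-fold each). None of these was at least 2-fold lower in RPFs. In RPFs, of 62 members, 0 were higher and 3 lower at 10 min (Kcnh7, Kcnip1 and Kcnn1; 0.932% and 6.21% of genes), and 1 higher and 2 lower at 30 min (Kcnc4, and Kcnh3 and Kcnn1; 1.16% and 6.25% of genes). For Kcnj10 the RPF level was 214 RPKM without KCl, 181 at 10 min and 175 at 30 min, the tail tags numbered 185, 125 and 140 of 604775, 574544 and 776935, and 7 astrocyte markers summed to 2130, 2104 and 2005 CPM. With 20 reads in both libraries 0 of 15 members passed at 10 min, against 0.392% higher and 0.114% lower of genes, and 1 of 22 was lower at 30 min (Kcne1l), against 1.41% and 2.2%. None of 10 partners passed at either time.

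RNA-seq reads of Kcnj10 were low next to its RPFs in each of the 7 cultures with an RPF library analysed. It had 6 reads and 664 RPFs at DIV14, and 25 reads and 2215 RPFs at DIV10. Per length, the DIV14 level was 10.8 RPKM in RNA-seq and 140 in RPFs, and in adult cortex 24.7 and 147. At 50 or more tags its tail was measured in 8 libraries, with 186 tags at DIV14.

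Transduction with miR-1 or miR-155 is compared with 1 shared GFP culture, the least deep library. miR-1 is a miRNA of muscle and miR-155 one of immune cells, and both direct repression of mRNAs with seed matches. With miR-1, 4 of 39 members were at least 2-fold higher and 2 lower, against 2.81% and 1.98% of genes. Kcnc2 had 31 reads against 38 (2.65-fold lower after scaling, 1.61 to 4.41) and Kcnd3 21 against 26 (2.68-fold lower). The 4 higher members (Kcnn1, 43 against 7 and 2.84-fold; Kcnj6, 23 against 4 and 2.66-fold; Kcnj9, 33 against 7 and 2.18-fold; Kcnf1, 70 against 16 and 2.02-fold) all had under 20 reads with GFP, and the intervals of Kcnj6 (0.909 to 10.6) and Kcnj9 (0.948 to 5.84) included no difference. With 20 reads in both libraries 0 of 20 were higher and 2 lower, against 0.268% and 2.24%. Kcnj2, an inward rectifier known as a miR-1 target in heart, had 19 reads against 4, too few to compare. With miR-155, 2 of 51 were higher (Kcnj6, 70 against 4 and 3.71-fold, and Kcnj9, 73 against 7 and 2.21-fold) and none lower, against 3.06% and 1.85%. With 20 reads in both libraries 0 of 20 passed, against 0.114% and 1.66%. Of the partners none of 11 passed with miR-1, and 1 of 14 was higher with miR-155, Abcc8 (35 reads against 1).

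The seed of miR-155 allowed its sites to be listed. The mature strand (RefSeq, GRCm38, chr16:84714143-84714165, + strand) is shown with bases 2 to 8, the seed, in capitals, because the site search rests on them.
miR-155-5p: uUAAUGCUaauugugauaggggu

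A match is AGCATTA, or AGCATTAA with the extra base opposite the first base, searched on the sense strand of annotated 3′ UTRs. Of 89 members with a 3′ UTR, 14 held a match (15.7%), against 7.97% of 16859 transcripts. The members' median 3′ UTR was 1777 nt against 925 nt, and their coding sequences had a median of 1488 nt against 1347 nt in 4 exons against 8. Sites of 4 members with a match and 20 reads in both libraries follow, in 3′-UTR windows of GRCm38 with the match in capitals.
Kcna1 (chr6:126640713-126640742, - strand): ttctcttagtcAGCATTAtggcctatttga
Kcna1 (chr6:126637106-126637135, - strand): tgtgtaggaaaAGCATTAggctctgctgtc
Kcnd3 (chr3:105673057-105673086, + strand): aagtacctgggAGCATTAtatgcctagatc
Kcnd3 (chr3:105673123-105673152, + strand): gaaattgagctAGCATTAgatttgaagctg
Kcnd3 (chr3:105673410-105673439, + strand): gcatcatgaaaAGCATTAgaatcgagggac
Kcnk10 (chr12:98430595-98430624, - strand): tagttgtgctaAGCATTAgcaaacaaccct
Kcnq3 (chr15:65989491-65989520, - strand): atactggaaggAGCATTAAgaatgtggttc

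Over all genes with 20 reads in both libraries, 545 with a match had a median of -0.24 (log2, miR-155 over GFP), 195 with the 8-base match -0.34, and 4687 without a match -0.01. The 14 members without one had a median of -0.09. Kcnd3, with its 3 matches, had 94 reads against 26 (0.767-fold, 0.493 to 1.23). Kcnk10 (0.810-fold) lay nearby. Kcna1, with its 2 matches, had 133 reads against 28, which was near equal after scaling (1.008-fold, 0.667 to 1.574). Kcnq3, the one with the 8-base match, had 131 against 20 (1.39-fold, 0.864 to 2.35). Every one of these intervals included no difference, so that an effect of the size seen over all matched genes was not detectable for a single member at this depth.

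Translational efficiency (TE) is the log2 ratio of RPF to RNA-seq RPM, given here relative to the median gene of the sample. In adult cortex 38 members had a TE, with a median 0.25 below that of all genes, 13 of them in the lowest and 5 in the highest quartile of genes. The lowest were Kcnq3 at -1.94, Kcnh3 at -1.75 and Kcnt2 at -1.47, and the highest Kcnip4 at 1.27, Kcna6 at 0.90 and Kcnf1 at 0.82. In adult hippocampus the median of 39 members was 0.17 below all genes, in embryonic hippocampus that of 13 was 0.96 below, and at DIV14 that of 19 was 0.02 above. The hippocampal values rest on uneven RPFs. For genes with 200 to 400 RNA-seq reads the log2 ratio had an SD of 1.40 in embryonic and 1.35 in adult hippocampus. In adult cortex this SD was 1.05.

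**Figure D3:**
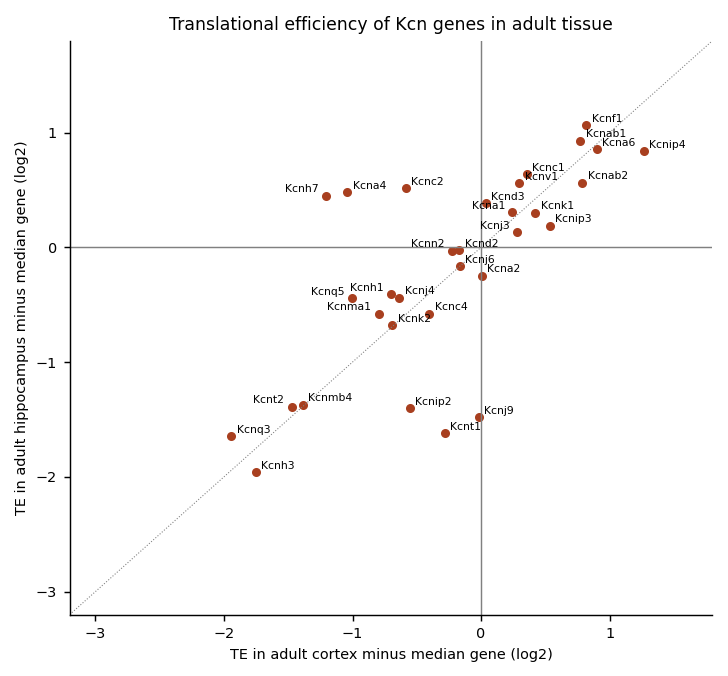
TE of 32 of the 35 Kcn genes measured in both, relative to the median gene (log2) in adult cortex (x axis) and adult hippocampus (y axis), 1 sample each; the dotted line marks equal values. Kcnq3 (-1.94 in cortex), Kcnh3 (-1.75) and Kcnt2 (-1.47) lie low in both tissues, and Kcnf1, Kcna6 and Kcnip4 high in both.

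Several members kept their side of the median in each sample in which they were measured. The share of all genes that did so was not computed. Kcnh3, a channel of forebrain neurons, was below it in 9 of 9 (-2.77 to -0.98), as was Kcnj4 (-1.72 to -0.17). Kcnq3 was below in 6 of 6 (-1.94 to -0.29). Above it in each were Kcnab2 (6 of 6, 0.52 to 1.27), Kcnf1 (6 of 6, 0.71 to 1.20), Kcnv1 (6 of 6, 0.02 to 0.56) and Kcnab1 (5 of 5, 0.51 to 0.93).

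Differences of TE between samples were few. Adult cortex and hippocampus shared 35 measured members, of which 3 were at least 2-fold higher in cortex (among them Kcnj9, by 1.39 on the log2 scale, and Kcnt1 by 1.26) and 3 lower (Kcnh7 at -1.73, Kcna4 at -1.60 and Kcnc2 at -1.18), against 7.36% and 5.63% of genes. Between adult and embryonic hippocampus 1 of 9 was higher, Kcnd3 (by 1.33), and none lower, against 10.8% and 11.3%. Its RNA count was near equal there, at 413 and 422 reads, with 1412 RPFs against 607. Between adult cortex and DIV14 culture 3 of 17 were lower in tissue, Kcnma1 (-1.49), Kcnq3 (-1.24) and Kcnq5 (-1.14), and none higher, against 14.7% and 3.52%. None of 8 members passed 2-fold between DIV14 and DIV10 (1.02% higher and 0.289% lower of all genes).

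Neither BDNF nor glu/gly moved the TE of any of 16 measured members past 2-fold, against 0.213% higher and 0.383% lower, and 0.444% and 0.909%, of genes. After 10 min of KCl 1 of 8 was lower, Kcnh3 (-1.10, 39 RPFs and 36 reads against 115 and 62), against 5.15% of genes, and 7 of 8 lay below the median change, with a median of -0.58. After 30 min Kcnj4 was lower (-1.22, 73 RPFs and 95 reads against 384 and 94), against 4.61%, and all 5 measured members lay below, with a median of -0.31. Those with TE at 30 min were only the most abundant, since 10 RPM was required in both libraries.

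Poly(A)-tail length was given per gene with at least 50 tags, as a mean over tags. At this depth 21 members were measured in adult cortex, with a median of 102.7 nt against 99.5 nt for all genes, 19 at DIV14 (118.0 against 111.8 nt), 21 with BDNF (114.7 against 111.0 nt) and 17 with glu/gly (106.4 against 107.1 nt). Of 63 members with 50 or more RNA-seq reads in some library, 5 had no tail tag in any, among them Kcna3, Kcnd1, Kcnj6 and Kcnk9. No tail comparison was possible between the hippocampi, where no member had 50 tags in both.

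In cultures and adult cortex, measured by TAIL-seq, some members lay mostly on one side of the median tail. How many of all genes did so in these libraries was not computed. Kcnv1 was the shortest in adult cortex, at 75.1 nt (24.3 nt below the median gene), and had 94.97 nt at DIV14, 99.3 with BDNF and 94.6 with glu/gly. Kcnd2 was below the median in 6 of 6 of these libraries, Kcnj10 in 7 of 8 and Kcnmb4 in 6 of 7. Kcnab2 was above it in 4 of 4, by 7.2 to 24.5 nt, Kcnip2 in 4 of 4 by 14.3 to 17.7 nt and Kcnk1 in 6 of 6 by 4.0 to 10.4 nt. In visual cortex, measured by PAL-seq v2 in 8 mice, Kcnip2 was above the mouse's median gene in 8 of 8 and Kcnab2 in 6 of 8. The others were split between both sides there, with Kcnv1 above it in 5 of 8 mice, Kcnj10 in 5, Kcnd2 in 4, Kcnk1 in 4 and Kcnmb4 in 3. In adult cortex Kcnab2 with its long tail lay high in TE, and Kcnv1 with its short tail lay above the median TE.

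**Figure D4:**
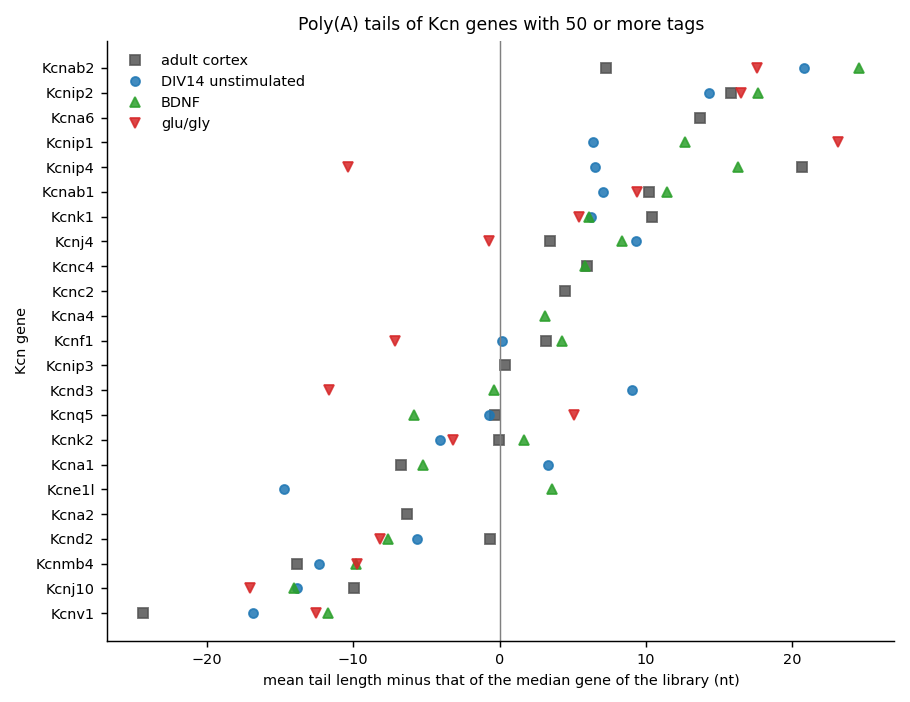
Mean tail length of Kcn genes with at least 50 tags minus that of the median gene of its library (nt), for adult cortex and the DIV14 cultures, 1 library each. Kcnv1 lies furthest left, at 24.3 nt below the median gene in adult cortex, and Kcnab2 and Kcnip2 to the right in all 4 libraries.

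Between adult cortex and DIV14 culture, tails of all genes were shorter in tissue by a median of 12.4 nt. Relative to that shift 1 of 16 members was at least 10 nt longer, Kcnip4 (120.1 against 118.3 nt, 14.2 nt relative to the shift), and 2 shorter, among them Kcnab2 (106.7 against 132.6 nt, -13.5), against 10.4% and 11.7% of genes. From DIV10 to DIV14 1 of 5 was shorter, Kcne1l (97.0 against 104.9 nt, -14.7), against 8.19%, and none longer, against 8.94%. With BDNF 2 of 19 were longer, Kcne1l (114.7 against 97.0 nt, 18.7 relative to the median change) and Kcnip4 (127.3 against 118.3 nt, 10.1), against 7.98%, and none shorter, against 7.17%. With glu/gly 2 of 17 were longer, among them Kcnip1 (130.2 against 118.2 nt, 16.7), against 7.96%, and 3 shorter, Kcnd3 (95.5 against 120.8 nt, -20.7), Kcnip4 (96.8 against 118.3 nt, -16.8) and Kcnj4 (106.4 against 121.1 nt, -10.1), against 7.91%. No member passed 10 nt after 10 or 30 min of KCl (3 and 5 measured), against 7.98% longer and 7.39% shorter, and 7.25% and 7.07%, of genes. With miR-1 or miR-155, 1 member was measured in each comparison and none passed, against 8.92% longer and 8.12% shorter, and 8.52% and 7.18%, of genes.

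Light after a week of darkness was the one replicated comparison, with 4 mice in each group, tested on tag counts by edgeR's quasi-likelihood test with Benjamini-Hochberg adjustment over all genes. Of 9554 genes tested 116 were higher (1.21%) and 12 lower (0.126%). All 6 activity genes were higher, with a median of 3.60 on the log2 scale. Of the 92 Kcn genes 47 were tested, and 0 were called higher and 0 lower by edgeR. At an unadjusted p under 0.05, edgeR gave 4 higher and 1 lower of the 47 members, against 903 of 9554 genes in either direction. DESeq2 called no member at an adjusted p under 0.05. The members' median difference was 0.04 against -0.00 for all genes, with 27 positive and 20 negative.

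Values of the members with the smallest p overlapped between groups or failed the correction. Kcnf1, the silent subunit, had 121.8, 154.9, 147.6 and 147.2 CPM in dark mice and 158.6, 152.1, 193.4 and 218.3 in light mice. Of the light mice 3 of 4 lay above all dark mice, and the difference was 0.34 on the log2 scale (SE 0.12, adjusted p = 0.281, edgeR). Kcnb2, a delayed rectifier, had 4.8, 7.3, 3.1 and 8.0 in the dark and 14.9, 12.3, 10.5 and 7.9 in the light, so that the groups overlapped in 1 mouse (0.88, SE 0.35, edgeR adjusted p = 0.381). Kcna4, an A-type subunit, had 31.5, 25.7, 24.3 and 40.01 in the dark and 23.1, 16.9, 21.5 and 26.0 in the light (-0.44, edgeR adjusted p = 0.524). Kcnip1 was the only member whose groups did not overlap, with 39.7, 34.5, 34.6 and 32.0 in the dark and 29.7, 27.9, 31.4 and 20.6 in the light (-0.36, SE 0.18, edgeR adjusted p = 0.555), where 5.67% of all genes did not overlap.

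No tail of a Kcn gene passed the test between light and dark mice. With limma on mean tail length, 10 of 4321 genes were longer (0.231%) and 0 shorter (0%), and of 25 members 0 were called longer and 0 shorter. At an unadjusted p under 0.05, limma gave 1 member longer and 0 shorter, against 170 of 4321 genes in either direction. The members' median difference was 4.09 nt against 3.75 nt for all genes, and 21 of 25 were positive. The member with the small p was Kcnf1, whose tail measured 84.1, 91.8, 86.0 and 80.6 nt in dark mice and 96.8, 108.0, 112.1 and 85.1 nt in light mice. The difference was 14.9 nt (SE 6.68, 95% interval 1.76 to 28.0, limma adjusted p = 0.999), and 10.8 nt when each mouse was centred on its median gene (adjusted p = 0.350, limma). Median tails of single mice ran from 77.5 to 97.5 nt, a range wider than the median shift with light. Of 14 partners and of the lists of neuron, interneuron, astrocyte, oligodendrocyte, microglia, vascular and progenitor markers, 0 genes were called in expression by edgeR. The p-values rest on the spread between these 8 mice. For uncentred tails limma gave each of the 25 members an SE of 6.68 nt, so that these p-values use a spread pooled over genes. They do not measure the spread of a single gene, whose SD in dark mice was 2.13 nt for Kcnd2 and 22.2 nt for Kcnip2.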

How the data were processed

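RNA-seq (12 libraries) and ribosome profiling (12) were deposited as read counts, RPM and RPKM values per gene, and tails (20) as tag counts and tail lengths in nt. The authors kept 1 transcript per gene and counted coding-sequence reads, leaving out the first 50 nt, using STAR 2.4.2 and bedtools on mm10 per the submitters' processing notes, and divided counts by a total larger than the reads on genes to give RPM and RPKM. The deposited log2 TE values are the authors' ratios and served as an alternative. Tail lengths come from TAIL-seq (cultures and adult cortex) or PAL-seq v2 (hippocampi and visual cortex); those of the hippocampi are multiples of 0.5 nt, were taken as medians, and are not compared with the others. The rRNA step of 3 cultures is not given in the sources used here. Labels of 2 RPF libraries (miR-1 and miR-155) contradict each other, and these were not analysed.

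Accessions were matched to symbols, positions and sequences of GRCm38 in RefSeq (16975 of 17126 matched). Reads were scaled by reads on genes. Genes needed 20 reads in 1 of the libraries compared. Called means at least 2-fold, with counts under 3 set to 3 for calls and medians. Printed folds and their Clopper-Pearson intervals at 95% use the reads as counted, and a fold from 0 reads is given as a bound against 3. TE needed 10 RPM of RNA-seq and 1 RPF, tails 50 tags and 10 nt, each relative to the median gene. Light was tested with edgeR 4.0.16 (TMM, filterByExpr, quasi-likelihood) on counts and limma 3.58.1 on tail length in R 4.3.3, with DESeq2 1.42.0 as an alternative. Steps were tested on simulated data. Light and dark mice share replicate numbers; correlations of their deviations ran from -0.196 to 0.0308, so that the numbers were not taken as pairs.

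Members were set by symbol alone. This rule and the lists (channel partners, cell-type markers, activity genes) were chosen with earlier results of these data known. Named are the members with the largest differences among those called, up to 5 in each direction, the highest per subfamily and the extremes of TE in adult cortex; others in the text, with the members of smallest p in light, serve as examples of their subfamily and were chosen after their values were seen. Some members are counted in the sums, counts and medians but are not reported singly here, in the text or the figures.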

Additional observations from a re-analysis of the deposited data

Results flagged for a closer look

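In 14 groups of 4 mice tested for a value far from the others, where chance gives about 1 in 20, 1 was found. Kcnip2, the calcium-binding subunit of Kcnd channels, had 96.8 CPM in dark mouse 4 and 73.9 to 76.2 in the other 3, and light mice had 79.2 to 112.1.

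The tail of Kcnip4 differed from the median change by 10.1 nt with BDNF and by -16.8 nt with glu/gly. The difference between the treatments was not tested, each had 1 library with 98 and 57 tags, and both were set against the same unstimulated culture with 81 tags.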

How the results depend on the processing

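Counts of Kcn genes past the threshold were recomputed under 148 alternatives for 30 results, of which 109 stayed within 1.5 times and 39 moved. None was labelled reversed, a label that the 52 alternatives for light could not receive. The cause of a move was not tested except where fewer genes or samples entered. All 52 alternatives for light gave 0 called members, with the replicate block too (higher and lower, expression and tails), and a range of 0 to 0 without each replicate. In RNA, counts moved with at least 20 reads in both libraries (fewer genes tested; adult against embryonic hippocampus 38 from 64, adult cortex against DIV14 14 from 37, BDNF 0 from 1, KCl 10 min 0 from 1, KCl 30 min 1 from 5, miR-1 2 from 6, miR-155 0 from 2), with at least 50 reads (DIV14 against DIV10 4 from 11, BDNF 0, KCl 10 min 0, KCl 30 min 1, miR-1 1), with tail tags in place of RNA-seq reads (hippocampus 8 of 9 tested, cortex against DIV14 17, BDNF 2, glu/gly 1 from 0, KCl 30 min 2, miR-1 1), with the authors' RPM (BDNF 2, glu/gly 1, KCl 10 min 2, KCl 30 min 11), centred on the median gene (KCl 30 min 3), and with an interval that excludes no change (KCl 10 min 0). TE counts moved at 30 RPM (hippocampus 0 from 1, cortex against hippocampus 1 from 6, cortex against DIV14 0 from 3; no member was left for KCl) and without centring (glu/gly 1 from 0, KCl 10 min 4 from 1, KCl 30 min 0 from 1). Tail counts rose at 20 tags (cortex against DIV14 11 from 3, DIV14 against DIV10 3 from 1, BDNF 8 from 2, glu/gly 11 from 5, KCl 10 min 3 and 30 min 4 from 0, miR-1 8 and miR-155 11 from 0) and without centring (cortex against DIV14 9). The stimulus results thus rest on few reads, and each culture and tissue on 1 library. Tails of adult against embryonic hippocampus gave no value.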
